A study of Homo sapiens with 172 samples.

Results

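The zinc finger gene clusters of chromosome 19 were examined for contact with the nuclear lamina in single cells. They were taken as the covered 100 kb bins overlapping 7 fixed windows in hg19, which gave 122 of the 558 covered bins of chromosome 19 and of the 26414 covered bins of the genome. The windows were drawn by position along the chromosome, and the clusters were chosen with earlier results of these data known. The data came from KBM7, a near-haploid human leukaemia line, as 1 clone (5-5, haploid) in which Dam methyltransferase is fused to LaminB1, and all cells belonged to this 1 group. Cells had been kept for 15 h in 0.5 nM Shield1, which protects the fusion protein from degradation and so starts the methylation. Single cells were then sorted from those double-positive for the Fucci reporters of cell cycle phase, taking the smallest 2%. The table gives each bin's ratio of observed to expected reads, and contact with the lamina was called where this ratio reached 1 or more. Contact frequency is the percent of the 84 cells with the bin in contact. Columns whose sample numbers differ by 86 held the same cell (all 168 columns correlated best with that partner) and were averaged, and cells are named by the lower number. With 1 group and no separate cultures named, there was no test, and standard deviations describe the spread between cells.

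Zinc finger genes of the C2H2 kind form the largest family of human transcription factors, and most of those on chromosome 19 arose by tandem duplication. Many of their products also carry a KRAB domain, which recruits the corepressor TRIM28 and with it H3K9 methylation to transposable elements. ZNF93 is known for silencing LINE-1 elements and ZNF91 for silencing SVA elements, and both belong to the 19p12 cluster. The bodies of many of these genes are themselves known to carry H3K9me3, a mark of heterochromatin, and heterochromatin often lies at the lamina. Chromosome 19, by contrast, is gene-dense and is known to lie mostly in the nuclear interior.

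The clusters are named here by cytogenetic band, with a and b for a pair in the same band. On the short arm they were 19p13.2a (19:9400001-9900000, 5 bins), 19p13.2b (19:11600001-12600000, 10 bins) and 19p12 (19:20000001-24300000, 43 bins), which ends 3 covered bins short of the centromeric gap. On the long arm they were 19q13.12 (19:37000001-38400000, 14 bins), 19q13.31 (19:44200001-45000000, 8 bins), 19q13.41 (19:52100001-53900000, 18 bins) and 19q13.43 (19:56600001-59000000, 24 bins). Every bin of every window was covered. The positions are in hg19, and the gene table at hand is in GRCh38.p14, so genes were placed by their order along the chromosome and not in single bins. Of 200 genes listed for the clusters from cytogenetic knowledge, 198 were coding genes in that table. From ZNF93 to ZNF254, the first and last of the 19p12 list, 33 of 35 coding genes are named as zinc finger genes. The same held for 10 of 11 from ZNF699 to ZNF846 (19p13.2a), all 22 from ZNF627 to ZNF564 (19p13.2b), 23 of 24 from ZNF529 to ZNF573 (19q13.12) and all 19 from ZNF404 to ZNF180 (19q13.31). The 2 distal clusters are mixed, with 38 of 54 from ZNF175 to ZNF813 (19q13.41), where FPR and SIGLEC genes of myeloid cells intervene, and 64 of 81 from ZNF787 to ZNF446 (19q13.43). The imprinted gene PEG3 is counted among these 64 as a zinc finger gene.

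Dam methylates adenine in GATC and DpnI cuts the methylated site, so the assay reads fragments cut at GATC. To show how the 19p12 genes resemble each other around such a site, the promoters of its first and last listed gene are printed beside that of the first gene of 19p13.2a, the cluster with the least contact. Each spans 250 bases before to 50 after the transcription start (RefSeq, GRCh38.p14), 5′ to 3′ on the gene's strand, with GATC in capitals. ZNF93 is at chr19:19900696-19900995 on the plus strand, ZNF254 at chr19:24086937-24087236 on the plus strand and ZNF699 at chr19:9309789-9310088 on the minus strand. These positions do not correspond to the hg19 bins.
ZNF93: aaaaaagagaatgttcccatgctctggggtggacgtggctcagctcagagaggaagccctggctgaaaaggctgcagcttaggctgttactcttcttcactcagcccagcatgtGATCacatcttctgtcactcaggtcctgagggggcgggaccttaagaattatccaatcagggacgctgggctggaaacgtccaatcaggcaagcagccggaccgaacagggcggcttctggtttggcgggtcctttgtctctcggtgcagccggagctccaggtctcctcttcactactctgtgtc
ZNF254: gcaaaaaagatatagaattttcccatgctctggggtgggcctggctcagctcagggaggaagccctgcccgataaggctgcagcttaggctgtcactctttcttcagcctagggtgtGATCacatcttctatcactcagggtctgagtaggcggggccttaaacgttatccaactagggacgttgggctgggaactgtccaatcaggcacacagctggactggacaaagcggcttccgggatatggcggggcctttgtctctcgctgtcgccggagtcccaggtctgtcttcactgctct
ZNF699: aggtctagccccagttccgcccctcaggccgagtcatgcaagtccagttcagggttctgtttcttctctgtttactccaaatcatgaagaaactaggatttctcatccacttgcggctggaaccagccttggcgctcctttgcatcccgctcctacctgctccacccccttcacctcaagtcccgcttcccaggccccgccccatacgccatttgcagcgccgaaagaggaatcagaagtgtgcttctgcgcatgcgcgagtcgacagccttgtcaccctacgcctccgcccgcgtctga
The ZNF93 and ZNF254 promoters were 83% identical in a global alignment, and each holds 1 GATC, whereas that of ZNF699 holds none and was 60% and 58% identical to them. Promoters were found for 171 of the 200 listed genes. Over the 26 of 19p12 the median identity of 325 pairs was 80%, against medians from 59.3 to 63.3% within the other clusters and 59.3% between 19p12 and the other 6. Only listed genes were aligned, so the identity that unrelated promoters reach by this measure was not determined. GATC, which reads the same on both strands, was present in 20 of the 26 promoters of 19p12 (76.9%), in 62 of the 145 of the other clusters (42.8%) and in 41.7% of all 27305 promoters. The low clusters differed among themselves, with GATC in 21 of 30 promoters of 19q13.41 (70.0%) and 12 of 19 of 19p13.2b (63.2%), shares near that of 19p12, but in 1 of 9 of 19p13.2a, the cluster of ZNF699. The longer stretch TGATCACAT, picked after the sequences were seen and searched on both strands and containing GATC, was in 16 of the 26 promoters of 19p12, in none of the 145 others and in 0.271% of all promoters. The 19p12 promoters also had fewer CpG dinucleotides, with a median of 10 against 20 in the other clusters together and 14 in all promoters. Contacts in 100 kb bins cannot be assigned to single promoters.

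Of the 7 clusters, 19p12 had by far the most contact with the lamina, and the other 6 were near the low level of the chromosome around them. The mean contact frequency of its bins was 25.7% ± 24.26 (SD over 84 cells of the share of its bins in contact). The other chromosomes had 28.2% ± 6.69, and 19p12 was above them in 33 cells and below them in 51. The other 6 clusters had 0.952% ± 5.29 (19p13.2a), 1.96% ± 5.58 (19q13.12), 2.50% ± 6.92 (19p13.2b), 2.51% ± 7.92 (19q13.41), 3.62% ± 6.78 (19q13.43) and 3.87% ± 12.3 (19q13.31). The 19p13.2a value rests on 4 contacts, 2 of them in cell 48, and was 0.488% without cells 48 and 77. The order of these 6 rests on differences smaller than the spread between cells. Together they had 2.79% ± 4.64, against 3.22% ± 3.61 in the 436 bins of chromosome 19 outside all clusters.

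**Figure D1:**
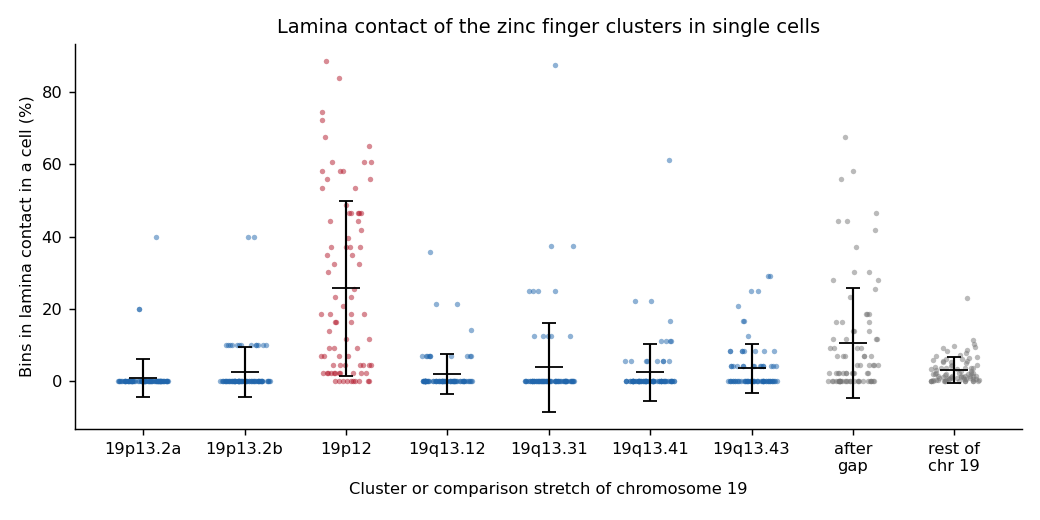
Percent of a cluster's bins in lamina contact in each of 84 cells (points), with the mean and SD over cells (bars), for the 7 clusters, the 43 covered bins after the centromeric gap and all chromosome 19 bins outside the clusters. The 19p12 points spread from 0 to 88.4%, while the other clusters lie mostly at 0 with a few cells far above.

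Set side by side within a cell, 19p12 exceeded the rest of chromosome 19 by 22.5 ± 23.6 percentage points (SD, n = 84) and was higher in 70 cells, lower in 13 and equal in 1. It exceeded the other 6 clusters by 22.9 ± 24.2 points and was higher in 69 cells. The other 6 clusters differed from the rest of the chromosome by -0.43 ± 3.66 points, and were higher in 27 cells and lower in 54. All 122 cluster bins together had 10.9% ± 9.36 and were above the rest by 7.64 ± 8.48 points, higher in 70 of 84 cells. The 43 bins of 19p12 are 7.71% of the covered bins of the chromosome and held 928 of its 2291 contacts (40.5%), whereas the other 79 cluster bins, 14.2% of the bins, held 185 contacts (8.07%).

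Counts of bins give the same order. In 19p12, 27 of 43 bins (62.8%) were in contact in at least 20% of cells, against 47.7% of all covered bins and 1.61% of the bins of chromosome 19 outside the clusters. None of the 79 bins of the other 6 clusters reached 20%. Of these 79, 72 (91.1%) were in contact in under 5% of cells, as were 36.7% of all covered bins and 87.2% of the rest of chromosome 19. In 19p12, 3 bins were under 5%. No cell had contact in 9 of the 79 bins (11.4%), which allows a frequency of up to 3.57% by the limit of 3 cells (the exact 95% interval ends at 4.30%), and the share of such bins was 22.0% in the rest of the chromosome and 6.19% over all covered bins. These limits cover counting error only.

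The depth behind the calls differed between the clusters. Whole reads could be worked back from the ratios, and cells had 7134 to 418935 reads in their deeper column (median 63700). The authors' expectation, in whole units from 1 to 592 per bin, had a median of 136 in 19p12, 264 in the other clusters, 288 in the rest of chromosome 19 and 316 over all covered bins. A ratio of 1 therefore stood for a median of 1.15 reads in a 19p12 bin and 2.22 reads in a bin of the other 6 clusters. At least 3 reads in the deeper column stood behind 64.2% of the contacts in 19p12 and 47.0% of those in the other clusters. The contrast was also present among bins of similar expectation. Bins with an expectation of 113 to 152, the middle of the 19p12 range, had a mean frequency of 27.4% in 19p12 (21 bins), 1.53% in the other clusters (7 bins), 4.23% in the rest of chromosome 19 (9 bins) and 15.3% on the other chromosomes (172 bins). It was also there when a call needed 3 reads in the deeper column, a setting added after seeing the data, with 16.5% in 19p12, 1.31% in the other clusters and 1.41% in the rest. Reads summed over a cluster and divided by the summed expectation, which uses no cutoff, gave a ratio of 0.928 ± 1.21 for 19p12, 0.112 ± 0.147 for the other 6 clusters, 0.119 ± 0.117 for the rest of the chromosome and 0.940 ± 0.037 for the other chromosomes (SD, n = 84). On this scale 19p12 was above the other 6 clusters in 74 of 84 cells.

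Contact rose at the border of the 19p12 cluster and varied along it. The 3 bins before the window were in contact in 0, 3 and 5 of 84 cells, the first 4 bins inside in 9, 14, 25 and 35. The highest bin was 19:21100001-21200000, in contact in 38 cells (45.2%, exact Clopper-Pearson 95% interval 34.3 to 56.5%), followed by 19:22400001-22500000 with 37 cells (44.0%, 33.2 to 55.3%). The top bin was higher than 66.4% of all covered bins, which is above the middle of the genome but far from the highest frequency of 88.1%. The lowest bin, 19:21500001-21600000, was in contact in 2 cells (2.38%, 0.29 to 8.34%), although its neighbours were at 25 and 18 cells and its expectation of 105 was not far below theirs (141 and 139). A second low stretch, 19:23300001-23600000, had 8, 3 and 5 cells, and the last bin of the window, 19:24200001-24300000, had 3. Contact was higher again in the 3 covered bins between the window and the gap, at 17, 22 and 29 cells, where the expectation was lower, at 122, 62 and 44. With 3 reads needed for a call, the mean of these 3 bins went from 27.0 to 6.75%, so most of their contacts rested on 1 or 2 reads. Over the 43 bins, frequency and expectation had a Spearman's rho of -0.02, given as a description across bins that share the same cells. The bin with the lowest expectation, 11, was in contact in 15 cells.

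**Figure D2:**
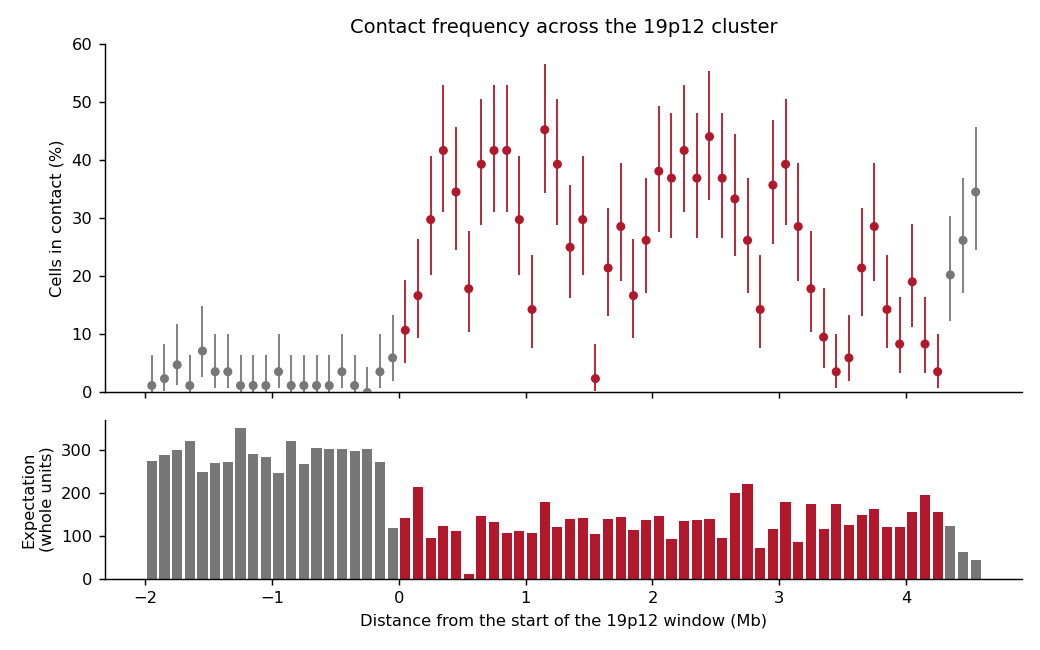
Upper panel, percent of 84 cells in contact per 100 kb bin with exact 95% intervals, against distance from the start of the 19p12 window in Mb. Lower panel, the expectation per bin in whole units. Red marks bins inside the window and grey bins outside. Frequency climbs from 10.7% in the first bin to 41.7% in the fourth and falls to 2.38% in 1 bin in the first part of the window.

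The neighbourhood of 19p12 was asymmetric. The 43 covered bins before it had a mean frequency of 1.77% ± 3.398, and 19p12 was higher in 69 cells and lower in 3. The 43 covered bins after the gap, the start of the long arm, had 10.6% ± 15.2 with 4 bins of at least 20%, and 19p12 was above them by 15.1 ± 23.9 points, higher in 59 cells and lower in 17. All 7 bins of at least 20% in the rest of the chromosome lay here or between the window and the gap. Without these 46 bins the remaining 390 bins of the rest had a mean of 2.22% ± 3.04, and the 6 low clusters then stood 0.57 ± 3.33 points above it instead of 0.43 points below the whole rest, higher in 31 cells and lower in 35.

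Cells differed widely in how much of 19p12 touched the lamina. The share of its bins in contact ran from 0 to 88.4% around a median of 18.6%, with quartiles of 4.07 and 46.5%. It was 0 in 10 cells and at least 50% in 16. The 10 cells without any contact there had 12324 to 418935 reads (median 64371), and the other 74 a median of 63700, so the cells without contact there were not shallower in the median. Cell 80 had 38 of 43 bins in contact, cell 74 had 36, cell 86 had 32 and cell 27 had 31. The share rose weakly with the logarithm of a cell's reads (r = 0.28 over 84 cells) and with the contact share of the other chromosomes (r = 0.29). The share of the other 6 clusters together went the other way with the logarithm of reads (r = -0.20).

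The calls within 19p12 formed short runs that nevertheless came from the same cells. The 928 contacts formed 405 runs of consecutive bins, with a mean length of 2.29 bins, and the median cell with contact had 6 runs. The longest run was 32 bins (3.2 Mb, cell 80), and runs of at least 10 bins were present in 9 cells and held 18.0% of the contacts. A ratio of 1 stood for a median of 1.15 reads in these bins. A break from a missed contact therefore cannot be told from one where contact was absent. After correction for each cell's contact share on the other chromosomes, calls of adjacent bins had a mean correlation of 0.37 over cells, those 1.1 to 2 Mb apart 0.30 and those 3.1 to 4.2 Mb apart 0.13. The first 21 and the last 22 bins had shares of 28.1% ± 27.3 and 23.4% ± 23.2, which correlated at r = 0.84 over the 84 cells after the same correction. Both parts were in contact in 56 cells, the first alone in 13 and the second alone in 5. The first part was higher by 4.74 ± 14.2 points, in 48 cells against 26.

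The other 6 clusters were touched rarely, and in few cells each. At least 1 bin was in contact in 3 cells for 19p13.2a, 12 for 19q13.31, 14 for 19q13.12, 15 for 19p13.2b, 16 for 19q13.41 and 31 for 19q13.43, against 74 for 19p12. Larger clusters have more bins in which a single call counts, so these numbers are not comparable between clusters of different size. Their median share of bins in contact was 0 in each of the 6. The highest shares were 87.5% in 19q13.31 and 61.1% in 19q13.41, both in cell 77, then 40.0% in 19p13.2a and in 19p13.2b and 35.7% in 19q13.12, all in cell 48 (with cell 55 at the same 40.0% in 19p13.2b), and 29.2% in 19q13.43 in cells 18 and 86.

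Among these clusters the one nearest the end of the long arm, 19q13.43, held the highest bins. Its bin 19:57600001-57700000 was in contact in 10 of 84 cells (11.9%, exact 95% interval 5.86 to 20.8%) and 19:57200001-57300000 in 9 (10.7%), while 3 of its 24 bins were in contact in no cell. Its high bins lay together, with 9, 6, 7, 4 and 10 cells in the stretch 19:57200001-57700000, and the 13 bins after that stretch had 0 to 4. In 19q13.41 the highest were 19:52600001-52700000 and the next bin, with 5 cells each (5.95%, 1.96 to 13.35%). In 19q13.31 the bins had 1 to 4 cells, in 19q13.12 and 19p13.2b 0 to 4, and in 19p13.2a at most 1. The 3 bins on either side of these windows had 0 to 5 cells, so no border was visible at any of them.

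**Figure D3:**
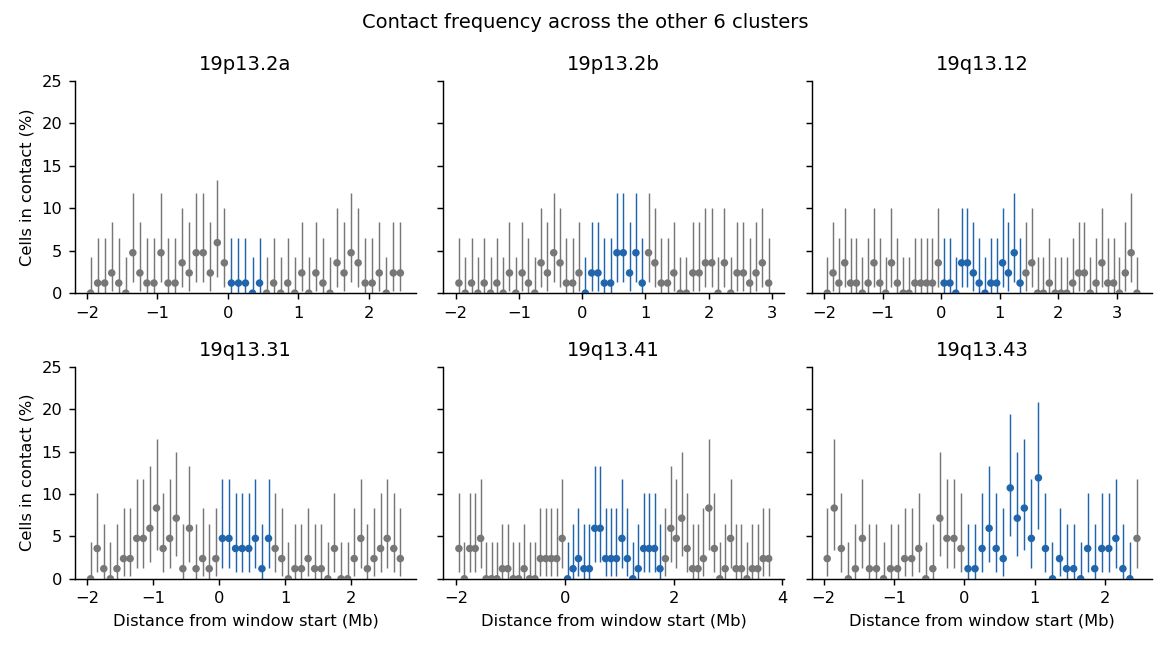
Percent of 84 cells in contact per 100 kb bin with exact 95% intervals, against distance from the start of each window in Mb, for the 6 clusters other than 19p12 (blue, inside the window; grey, up to 20 covered bins on either side). The y axis ends at 25%, and the highest bin inside a window is at 11.9% in 19q13.43.

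Contacts of the low clusters were unevenly divided between cells. Of their 185 contacts, cell 77 held 18 (9.73%) and cell 48 held 17 (9.19%), and 38 cells held none. These 2 cells were unlike each other. In cell 77, 7 of the 8 bins of 19q13.31 and 11 of the 18 bins of 19q13.41 were in contact, but only 2 of the 71 bins (2.82%) between the clusters, and the other 4 low clusters had none. The 2 clusters had 30 and 31 reads in its deeper column, and the 71 bins between them 16. In cell 48 all 7 clusters were touched, 96.9% of all covered bins held a read, and the contact share was 11.5% in the rest of chromosome 19 and 39.9% on the other chromosomes, so its reads were spread more evenly over the genome than in other cells. No bin of a low cluster was in contact in more than 10 cells, so single cells set much of what follows.

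The last question was whether clusters touched the lamina in the same cells. At least 2 clusters were in contact in 44 of 84 cells (52.4%, exact 95% interval 41.2 to 63.4%), and 7 cells had contact in none, 33 in 1, 22 in 2 and 11 in 3. The percent depends strongly on the call, and was 22.6% at a cutoff ratio of 2, 23.8% with 3 reads needed and 8.33% when a cluster needed 25% of its bins. The remaining 11 cells had contact in 4 or more, namely cells 2, 18, 19, 49 and 57 with 4, cells 39 and 55 with 5, cells 6, 54 and 72 with 6, and cell 48 with 7. If clusters were independent, the product of their single frequencies would give 2.89 cells with none, 25.6 with 1, 33.1 with 2, 17.3 with 3 and 5.16 with 4 or more. Cells with no, 1 and at least 4 clusters were thus more numerous than the product gives, and those with 2 or 3 fewer. The 11 cells with at least 4 had 7134 to 264835 reads (median 33331), fewer than the median of 63700 over all cells. Their number also depends strongly on the call. It was 24 at a cutoff ratio of 0.5, 2 at a cutoff ratio of 2 and 3 with 3 reads needed, and no product was made for these rules. The part of their low-cluster contacts with at least 3 reads ran from 0% in cells 49 and 57 to 100% in cell 48. The part of depth in these counts was not tested beyond the values below.

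**Figure D4:**
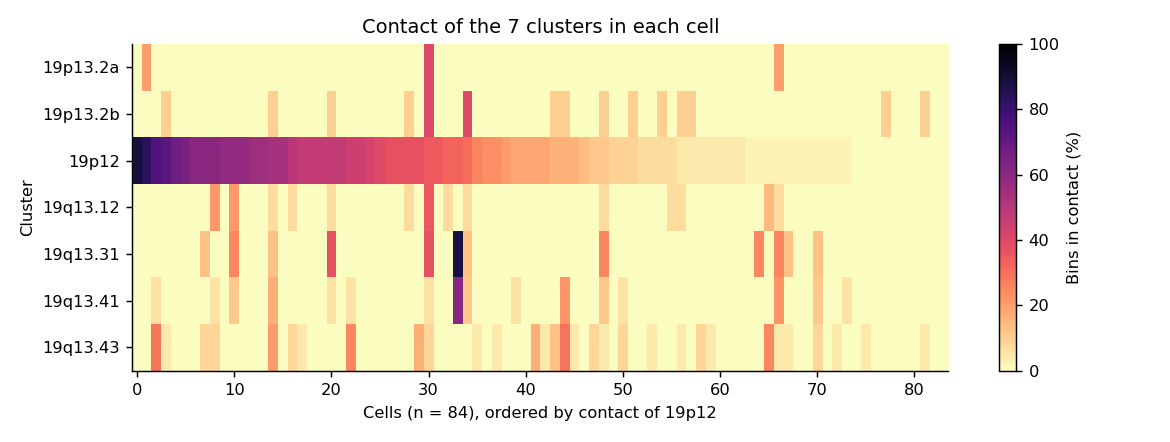
Percent of bins in contact (colour, 0 to 100) for the 7 clusters in each of the 84 cells, ordered by 19p12. Contacts of the lower clusters recur in a few columns, such as cell 48, and are scattered over the whole range of 19p12.

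The 15 pairs among the 6 low clusters had both members in contact in 84 cell-pair cases, against 38.6 from the product of their frequencies, and each of the 15 was above its product. The most cases were 10 against 5.91, for 19q13.41 with 19q13.43. For 19q13.31 with 19q13.41 there were 9 against 2.29, for 19q13.12 with 19q13.41 8 against 2.67, and for 19q13.12 with 19q13.31 7 against 2.00. Across the centromere, 19p13.2b and 19q13.12 were both in contact in 7 cells against 2.50. A cell counts once for every pair of low clusters it touches, so the cases are not separate events. Cell 48, with all 7 clusters in contact, counts in each of the 15 pairs, and cells 6, 54 and 72, with 6 clusters, count in many. In the 42 cells with the largest shares of bins holding a read there were 42 cases against 12.2. These 42 cells were not chosen by their number of reads, and they include cells 6, 48 and 72. When a call needed 3 reads in the deeper column, there were 27 cases against 6.61. Cell 48 kept 100% of its low-cluster contacts under that rule and so counts in each pair there too. Without cells 48, 54 and 56 there were 59 against 29.9. In cells 1 to 29 there were 25 against 17.5 and in cells 30 to 86 59 against 21.1.

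The 19p12 cluster was nearer to the product. Its 6 pairs had 87 cases against 80.2, and 43 of the 46 cells with contact in any low cluster also had contact in 19p12, where the product gives 40.5. Since 74 of 84 cells touched 19p12, such counts leave little room for an excess. Correlations of contact shares over the 84 cells, corrected for each cell's share on the other chromosomes, do not depend on this ceiling. They ran from 0.01 to 0.14 in the 6 pairs with 19p12, with a mean of 0.08 ± 0.05 (SD over pairs), and from -0.03 to 0.81 in the other 15 pairs, with a mean of 0.30 ± 0.24. This order did not hold throughout. Odd-numbered cells, in which 19p13.2a had no contact, gave means of 0.17 with 19p12 and 0.10 without it. Spearman correlations of the corrected shares gave 0.07 and 0.05. Those of the uncorrected shares ran from -0.02 to 0.13 in the 6 pairs with 19p12 and from 0.10 to 0.62 in the other 15. The Pearson mean over all 21 pairs, after correction, was 0.24 ± 0.22. All are descriptions over the same 84 cells and the pairs share clusters.

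**Figure D5:**
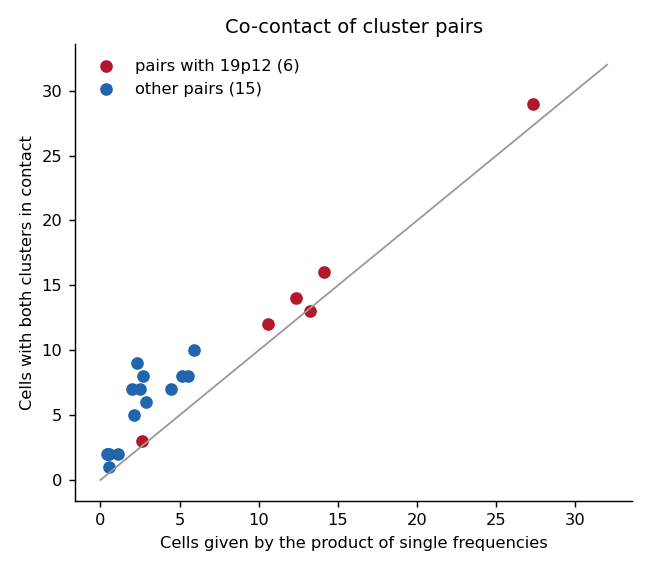
Number of cells, of 84, with both clusters of a pair in contact, against the number given by the product of the single frequencies (grey line, equality). All 15 pairs without 19p12 (blue) lie above the line, and the 6 pairs with 19p12 (red) lie close to it.

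Several of the high correlations rested on 1 cell. For 19q13.31 with 19q13.41, whose centres are 8.4 Mb apart, r was 0.81 and fell to 0.52 without cell 77. For 19p13.2a with 19p13.2b it was 0.55 and 0.05 without cell 48, and for 19p13.2a with 19q13.12 it was 0.61 and 0.13. The mean over the 21 pairs ran from 0.14 without cell 48 to 0.29 without cell 77. Pairs on the same arm averaged 0.25 ± 0.28 (9 pairs) and pairs on different arms 0.22 ± 0.18 (12 pairs), which differ by less than their spread.

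The low clusters moved with the chromosome around them more than with 19p12. After correction, the share of the 6 low clusters correlated over 84 cells at r = 0.69 with the 390 distant bins of the rest. With 19p12 it correlated at 0.15 (0.11 to 0.19 with any 1 cell left out), while no such range was made for the 0.69. Taken singly, the 6 low clusters correlated with the 390 distant bins at 0.33 to 0.51, and 19p12 did so at 0.17. With the 43 bins after the gap 19p12 correlated at 0.32 (0.28 to 0.39 with any 1 cell left out), with the 3 bins before the gap at 0.50, and with the 43 bins on its other side at 0.09. The cells with the most cluster contact illustrate both patterns. Cell 80 had 88.4% of 19p12 in contact, no bin of the other clusters and 0.688% of the rest of the chromosome, and cell 74 had 83.7% with 1 bin in the other clusters and 2.29% of the rest. Cell 86 had 74.4% of 19p12 and 7 of 24 bins of 19q13.43, with 3.44% of the rest. Cell 72 had 53.5% of 19p12, 11 bins in 5 of the low clusters and the highest share of the rest, 22.9%. At the other end, cell 36, the deepest cell with 418935 reads, had no contact in any of the 7 clusters and none in the rest of chromosome 19, while 39.3% of the bins of its other chromosomes were in contact.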

How the data were processed

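DamID of LaminB1 in sorted single cells gave the data. Cutadapt, Bowtie2 2.1.0 and hg19 are named per the submitters' processing notes. The treatment of duplicates and the making of the expectation were not given in the sources used here. Values deposited by the authors are ratios of observed over expected reads in 100 kb bins, for 168 of 172 labelled samples. Of 30376 bins, 3792 had no value and 170 were 0 throughout, which left 26414. Columns n and n + 86 were averaged, since they held 1 cell. Whole reads were recovered from the steps of the ratios (99.9995% of values above 0 whole within 0.02), and the recovery was tested on simulated data. Contact was a ratio of at least 1, and intervals are exact Clopper-Pearson at 95%. PCR reads lacking molecular identifiers need not be separate molecules, and intervals cover counting error only. Correlations over cells were Pearson, after subtraction of a linear fit on the contact share of the other chromosomes. Cells of 1 group are no replicates of a condition, hence there is no test. Promoters were the first listed start of a gene in RefSeq (GRCh38.p14), aligned globally. Named bins were the highest and lowest of each cluster, those of at least 20% and 3 bins outside each window, and named cells the 5 with most cluster contact and those with 4 or more clusters; cells 36 and 77, the stretch between 19q13.31 and 19q13.41 and the stretches around 19p12 were added after their values were seen. Clusters and gene lists were chosen with earlier results of these data known. Python 3.11.15, numpy 2.4.6 and scipy 1.17.1 were used.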

Additional observations from a re-analysis of the deposited data

How the results depend on the processing

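No paired analysis was possible because all cells form 1 group and no groups share replicate numbers; the within-cell differences compare regions, not groups. For the 6 low clusters the SD was larger than the value. It was near or above the value for 19p12, all cluster bins together, their difference from the rest and the mean correlation. Staying within the SD therefore says little about stability. Over its alternatives 19p13.2a ran from 0 to 4.52%, and the mean correlation ran from 0.06, by ranks of the corrected shares, to 0.39. Alternatives with 3 reads or without cell 77 were added after seeing the data. The difference of cluster bins from the rest of chromosome 19 was above 0 in all 20 alternatives run, from 4.45 to 9.98 points, and 19p12 ran from 14.8 to 35.4%. The number of bins of at least 20%, 27, was 17 at a cutoff of 2. The percent of cells with contact in at least 2 clusters, 52.4%, was 75.0, 27.4 and 22.6% with cutoffs of 0.5, 1.5 and 2, 22.6% with 5 bins averaged, 69.0% in cells 1 to 29, 8.33% when a cluster needed 25% of its bins, 2.38% when it needed a mean ratio of 1, and 23.8% with 3 reads in the deeper column. Stricter rules lower it by construction; for cells 1 to 29 the cause was not tested. The mean correlation over pairs ran from 0.14 to 0.29 with any 1 cell left out. In the 15 pairs without 19p12 the mean, 0.30, was 0.10 in odd and 0.41 in even cells and 0.05 by ranks of the corrected shares. In the 6 pairs with 19p12 these were 0.17, 0.03 and 0.07. The order of the 2 kinds of pair thus turned in odd cells, and the cause was not tested. The ranks of the corrected shares cannot decide the order. Where a low cluster had a share of 0, they order cells only by the contact share of the other chromosomes. In odd cells the 6 pairs with 19p13.2a had no correlation, as it had no contact there. Ranks of the uncorrected shares gave -0.02 to 0.13 with 19p12 and 0.10 to 0.62 without it. The low clusters are limited by depth: a ratio of 1 is about 2 reads in the median cell and a missed contact cannot be told from an absent one.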
